A study of Mus musculus with 6 samples.

Results

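Ion channel subunit genes were followed in RNA of whole testes, as the genes whose platform symbol begins with Cacna, Cacnb, Cacng, Kcn, Scn and a digit, Clcn, P2rx, Trpc, Trpm or Trpv. This rule uses no measured value, but the genes were chosen with earlier results of these data known. It found 152 of the 18194 genes measured with a probe set of their own. Of these 152, 47 were bright enough to be tested, among 10917 tested genes in all. The arrays came from 12-week-old mice, 3 labelled SCARKO-jsd and 3 labelled jsd. All 6 testes carried jsd (juvenile spermatogonial depletion), a mutation in Utp14b that halts spermatogonial differentiation in the adult, so that tubules hold mainly somatic cells and undifferentiated spermatogonia. In SCARKO-jsd mice a gene was also deleted conditionally in Sertoli cells, which nurse the germ line, and jsd mice are their controls. The Cre driver, the strain background and any pooling of animals are not given in the sources used here. The comparison asks which transcripts of such a testis differ with the Sertoli cell knockout. The labels do not tie an array to a mouse, so p-values reflect only how these samples vary, which may be technical.

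Ion channels are membrane proteins that let ions pass when voltage, a ligand, calcium or stretch opens them. A pore-forming subunit usually works with auxiliary subunits that set its gating and its place in the membrane. The Cacna genes encode voltage-gated calcium channel pores, with Cacna2d, Cacnb and Cacng products beside them, and several Cacng proteins also serve as auxiliary subunits of AMPA-type glutamate receptors. Kcn genes make potassium channels, Scn genes sodium channels, Clcn genes chloride channels and chloride-proton exchangers, P2rx genes channels opened by extracellular ATP, and Trp genes cation channels of varied gating. In the testis, chloride, potassium and calcium transport by Sertoli cells takes part in the secretion of tubule fluid.

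Expression is given as log2 values after RMA, the authors' normalisation, and each difference is SCARKO-jsd minus jsd on that scale. Genes whose mean over the 6 arrays was at most 6.64, the lowest 40%, are called dim and were not tested. A gene is called changed at a Benjamini-Hochberg adjusted p under 0.05 in limma, fitted over all tested genes. Array medians lay between 6.26 and 6.41. SCARKO-jsd 2 stood apart, correlating at 0.965 to 0.975 with the other arrays over all probe sets, against up to 0.996 among those. Rhox5, a homeobox gene of Sertoli cells whose transcription depends on androgen, was at 5.44, 6.11 and 5.84 in SCARKO-jsd arrays and 10.26, 10.43 and 9.74 in jsd arrays, the direction that goes with the labels. The markers of Sertoli, Leydig and peritubular cells that define a testis were bright, with 17 of 17, 5 of 6 and 9 of 9 measured markers above the dim limit. In bulk RNA, fewer cells of a type and less RNA per cell cannot be told apart.

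Of the 47 tested genes, Cacng5 and P2rx7 rose, Kcnk6 fell and 44 did not pass the test. That is 6.38% of the 47, beside 3.57% of all genes tested (390 of 10917). The 47 include Trpc4ap and Kcnq1ot1, which the rule takes in by symbol though they stand for no channel subunit. Since the genes were chosen with earlier results known, the share is also given without Cacng5 and P2rx7. Of those 45 genes 0 rose and 1 fell (2.22%). By direction, 2 of 47 rose, against 1.78% of all genes, and 1 of 47 fell, against 1.80%. Cacng5 was among the 47 only through its SCARKO-jsd arrays, as its jsd mean was dim. The median difference of the 47 was 0.02 and that of all tested genes 0.04, and 43 of the 47 lay within 0.5 log2 units of no difference. With median centring 2 rose and 0 fell. For 15 of the 47 every SCARKO-jsd array lay to the same side of every jsd array, 10 being higher and 5 lower in SCARKO-jsd testes. That share of 31.9% stands beside 24.6% of all tested genes (15.1% higher and 9.49% lower). Outside Cacng5 and P2rx7, 13 of 45 (28.9%) did not overlap and the differences ran from -0.86 to 0.69.

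**Figure D1:**
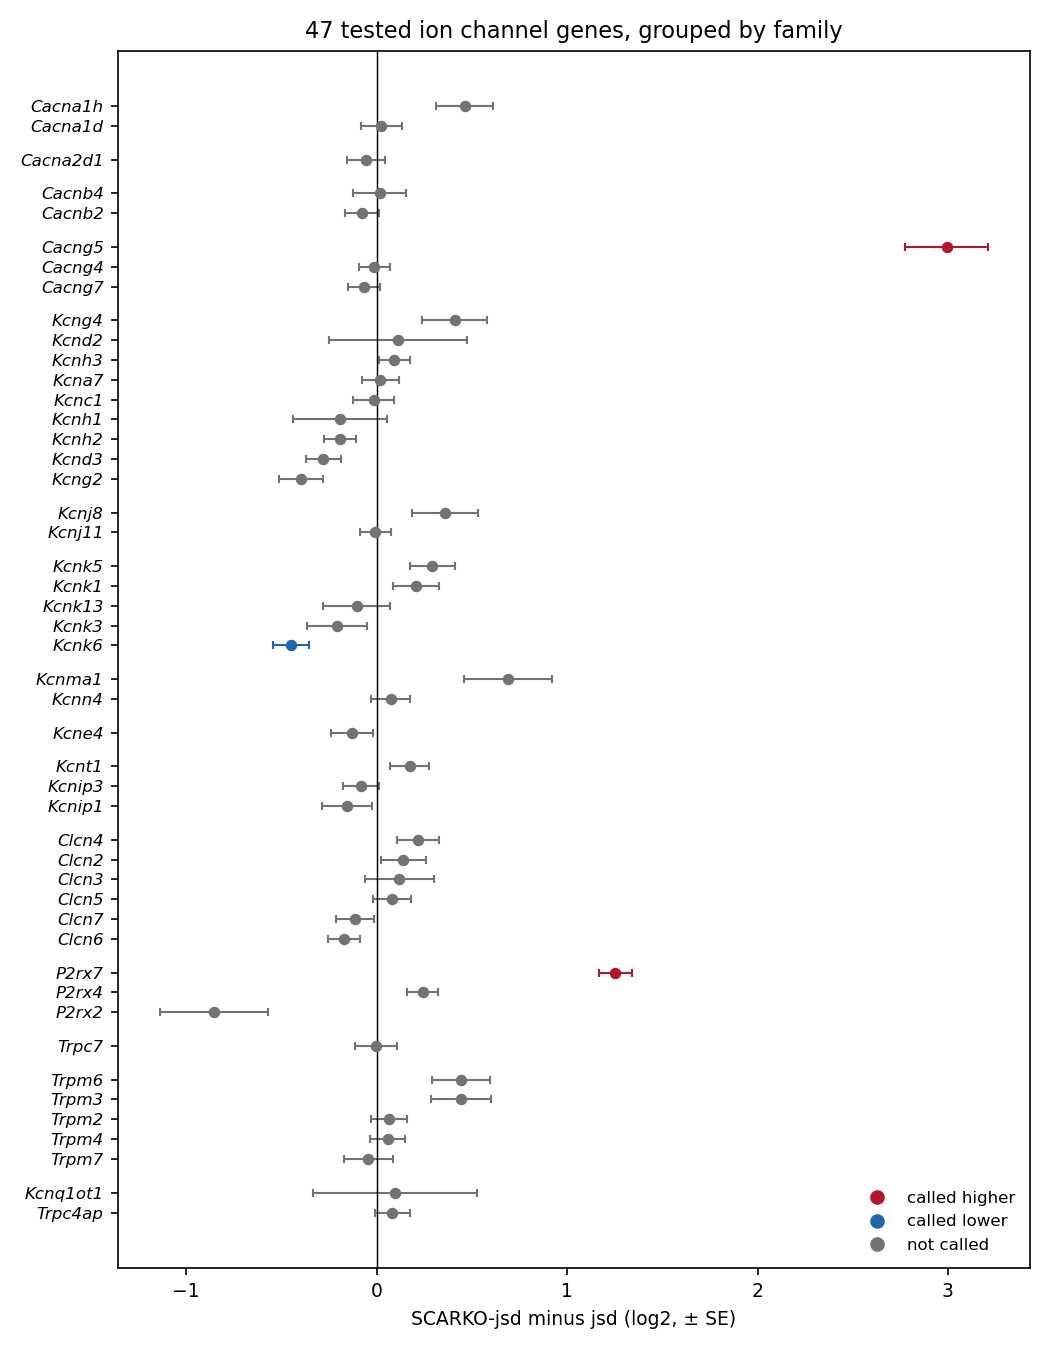
Difference between SCARKO-jsd and jsd testes (log2 expression, horizontal axis, point and SE) for the 47 tested ion channel genes, grouped by family down the page. Cacng5 at 2.99 and P2rx7 at 1.25 lie to the right of all others, and Kcnk6 at -0.45 is the single gene called lower.

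The start regions of both genes that rose are shown here, since they are the sequences nearest to the changed transcripts. RefSeq (GRCm38.p6) lists for each gene a pair of start sites, and which of them these testes use was not measured. Each line gives the 250 bases before a start, 5′ to 3′ on the strand of the gene. Capitals mark the GC box GGGCGG on either strand.
Cacng5, chr11:107911363-107911612, minus strand: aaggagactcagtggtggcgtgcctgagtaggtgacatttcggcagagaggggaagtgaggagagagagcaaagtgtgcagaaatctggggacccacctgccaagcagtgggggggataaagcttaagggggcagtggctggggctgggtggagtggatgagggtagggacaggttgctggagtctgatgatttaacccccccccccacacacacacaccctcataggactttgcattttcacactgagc
Cacng5, chr11:107915056-107915305, minus strand: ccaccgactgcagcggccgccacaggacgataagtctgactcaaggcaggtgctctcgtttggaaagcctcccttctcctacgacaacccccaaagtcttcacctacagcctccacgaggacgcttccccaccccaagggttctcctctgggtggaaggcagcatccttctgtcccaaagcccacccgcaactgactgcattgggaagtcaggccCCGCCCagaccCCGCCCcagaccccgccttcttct
P2rx7, chr5:122643677-122643926, plus strand: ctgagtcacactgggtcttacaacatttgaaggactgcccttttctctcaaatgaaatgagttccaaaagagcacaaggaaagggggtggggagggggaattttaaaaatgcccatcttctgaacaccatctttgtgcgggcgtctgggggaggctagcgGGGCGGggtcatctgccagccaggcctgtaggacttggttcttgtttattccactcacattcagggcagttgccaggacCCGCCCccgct
P2rx7, chr5:122650133-122650382, plus strand: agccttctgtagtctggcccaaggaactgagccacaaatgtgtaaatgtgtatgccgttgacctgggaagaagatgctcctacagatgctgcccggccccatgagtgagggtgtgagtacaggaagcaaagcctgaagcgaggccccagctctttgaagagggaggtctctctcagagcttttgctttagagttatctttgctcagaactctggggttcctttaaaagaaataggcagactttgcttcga
One window of each gene holds 2 GC boxes and the other none. The GC box occurs in 35.7% of all 32851 RefSeq start windows of 300 bases (from 250 before to 50 after the start).

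The half-site of the androgen response element, TGTTCT on either strand, is in none of the 4 windows of Cacng5 and P2rx7, also counting the 50 bases after the start. It occurs in 19.0% of all start windows and in 29 of the 164 windows (17.7%) found for 120 of the 152 ion channel genes. Among tested ion channel genes, 37 had a window, and 5 of their 52 windows (9.62%) hold the half-site, those of Cacna1d, Cacnb2, Clcn4, Clcn5 and Trpc7. For Kcnk6 no start window was available, so its start region was not searched. The half-sites of 3 of these genes, none of which passed the test, are shown in capitals with 10 bases on each side to set them against the windows above.
Cacna1d, chr14:30491157-30491182, minus strand: ggagaaacacAGAACAacagcgctac
Clcn5, chrX:7319573-7319598, minus strand: ataaacagttTGTTCTaaagacaaaa
Trpc7, chr13:56895844-56895869, minus strand: aaagcagagtTGTTCTctccctttca
These matches describe letters in a window and do not show binding.

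Cacng5, which encodes a gamma subunit that modulates AMPA receptors, had the largest difference of the 47. Its log2 expression was 8.06, 8.84 and 8.18 in SCARKO-jsd testes, against 5.13, 5.36 and 5.62 in jsd testes. Every SCARKO-jsd array stood above every jsd array by more than 2 log2 units, and SCARKO-jsd 2 was the highest of all. The rise was 2.99 ± 0.22 (SE), 7.97-fold (limma, Benjamini-Hochberg adjusted p = 0.000953). The jsd mean of 5.37 was dim, where array signal is mostly background, which makes the fold imprecise. Cacng5 passed the dim filter only through the SCARKO-jsd arrays, with a mean of 8.36. The other probe set of Cacng5 was dim in both groups, at 5.40, 5.55 and 5.16 in SCARKO-jsd and 5.26, 5.14 and 5.22 in jsd arrays, and its groups overlapped. The rise therefore rests on 1 of 2 probe sets, and the mean of both put the gene among those left out as dim. It was called with each array left out in turn, with differences of 2.75 to 3.15.

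Of the other gamma subunit genes, Cacng4 and Cacng7 were tested and neither passed. Cacng4, which lies next to Cacng5 on chromosome 11 and modulates AMPA receptors too, was at 7.48 ± 0.05 in SCARKO-jsd and 7.50 ± 0.05 in jsd testes (SD, n = 3). Its difference of -0.013 ± 0.082 (SE) did not pass the test (limma, adjusted p = 0.952). Cacng7, the gamma subunit most like Cacng5, had a difference of -0.068 ± 0.084 (adjusted p = 0.720). The remaining 5 Cacng genes were dim and not tested, with differences of -0.12 to 0.06, and no test set Cacng5 against the others. On chromosome 11, Cacng1, Cacng4 and Helz precede Cacng5 in the RefSeq gene order and Prkca, Apoh and Cep112 follow it, and these 6 neighbours had differences between -0.50 (Helz) and 0.30 (Cep112), none of them called.

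Apart from Cacng5, none of the 7 other tested calcium channel genes passed the test. Cacna1h, the pore of a low-voltage-activated (T-type) calcium channel, was at 8.75, 8.63 and 8.56 in SCARKO-jsd testes, against 7.94, 8.51 and 8.10 in jsd testes. The groups did not overlap, but jsd 2 came close to the SCARKO-jsd arrays, and the difference was 0.46 ± 0.15 (SE; limma, adjusted p = 0.161). Cacna1d, an L-type pore, differed by 0.024 ± 0.11, with -0.34 on its other bright probe set. Cacna2d1, an extracellular auxiliary subunit, differed by -0.055 ± 0.10. Cacnb2 and Cacnb4, cytoplasmic subunits that bring the pore to the membrane, differed by -0.078 ± 0.088 and 0.017 ± 0.14. Of the 24 calcium channel genes, Cacng5 included, 8 were tested, and the 16 dim ones had differences of -0.29 to 0.30.

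**Figure D2:**
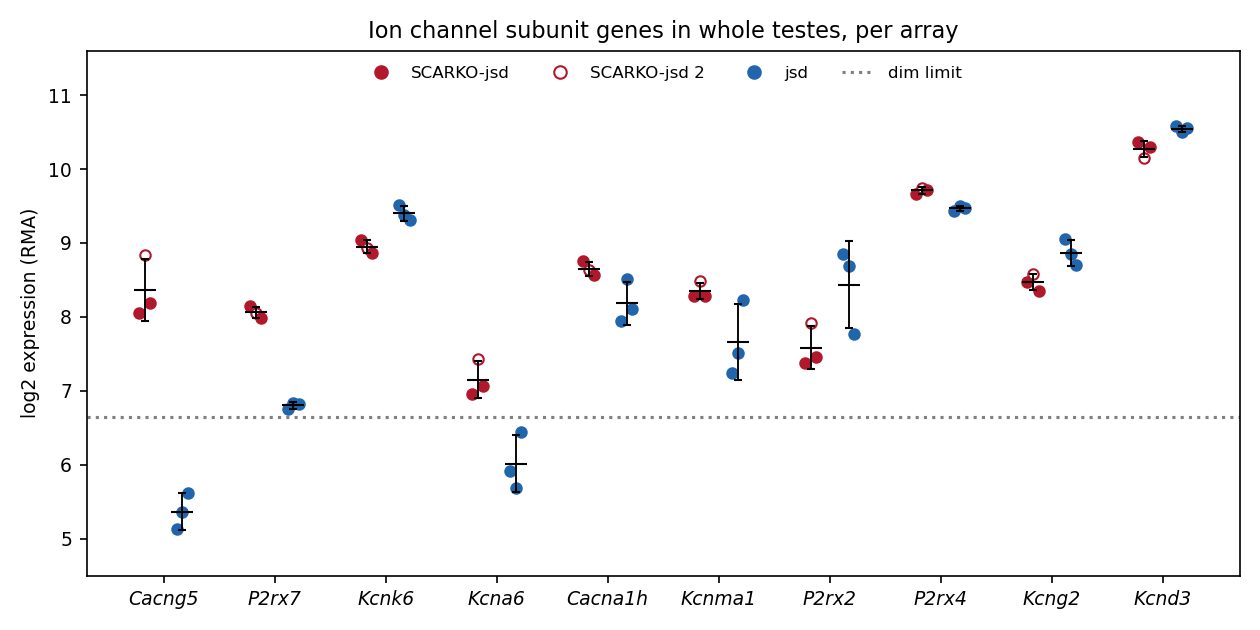
Log2 expression (vertical axis) of 10 ion channel genes on each array, SCARKO-jsd in red at left and jsd in blue at right of each gene, with mean and SD in black, SCARKO-jsd 2 as an open circle and the dim limit of 6.64 dotted. The groups are far apart for Cacng5 and P2rx7 and closer for Kcnk6. P2rx2 and Kcnma1 spread widely among jsd arrays.

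P2rx7 encodes a channel that opens at high extracellular ATP and in macrophages leads to the release of interleukin-1 beta. It was at 8.14, 8.06 and 7.98 in SCARKO-jsd testes and 6.75, 6.84 and 6.82 in jsd testes. Each group was tight and the gap between them exceeded 1 log2 unit. The rise was 1.25 ± 0.09 (SE), 2.39-fold (limma, Benjamini-Hochberg adjusted p = 0.000861). A dim probe set of the gene gave 6.15, 6.05 and 6.12 in SCARKO-jsd and 5.35, 4.97 and 4.08 in jsd arrays, a difference of 1.31 without overlap. Another dim one overlapped between the groups, with a difference of 0.18. The call held with the mean of the 3 probe sets (0.92, adjusted p = 0.0151) and with each array left out in turn (1.21 to 1.29).

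**Figure D3:**
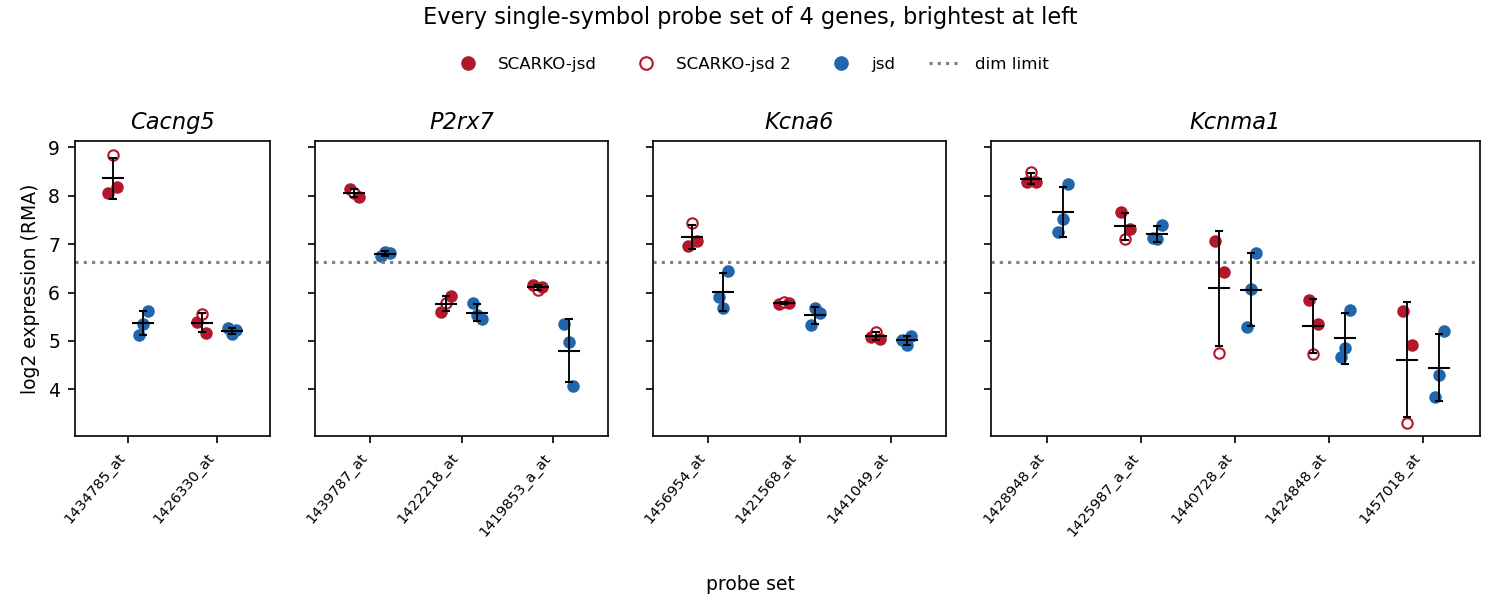
Log2 expression (vertical axis) of every probe set with a single symbol of Cacng5, P2rx7, Kcna6 and Kcnma1 (horizontal axis, brightest at left), SCARKO-jsd in red (SCARKO-jsd 2 open) at left and jsd in blue at right, with mean and SD and the dim limit dotted. The probe sets of P2rx7 that differ are the brightest and 1 dim one, while for Cacng5 the brightest alone differs.

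The other P2X receptor genes differed from P2rx7 in size or sign of their difference, and no test of that contrast was made. P2rx4, a receptor of lysosomes and macrophages whose gene lies next to P2rx7 on chromosome 5, was at 9.66, 9.75 and 9.72 in SCARKO-jsd and 9.44, 9.50 and 9.47 in jsd testes. All SCARKO-jsd arrays were above all jsd arrays, by a mean of 0.24 ± 0.08 (SE; limma, adjusted p = 0.169), and its other bright probe set gave 0.037. P2rx2, a receptor of neurons, was at 7.38, 7.91 and 7.46 in SCARKO-jsd testes, against 8.85, 8.70 and 7.77 in jsd testes. The groups overlapped because jsd 3 was low, and the difference of -0.86 ± 0.28 did not pass (adjusted p = 0.168) but did without jsd 3 (-1.19, adjusted p = 0.0297). The 4 remaining P2rx genes were dim, with differences of -0.04 to 0.13. Besides P2rx4, the genes around P2rx7 (Anapc7, Atp2a2, Ift81, Camkk2 and Anapc5) had differences of -0.11 to 0.14, none called.

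Markers of other cells were read beside these rises. Of 12 measured macrophage and myeloid markers 0 were called, and their mean log2 expression was 9.15 to 9.41 over SCARKO-jsd arrays and 9.29 to 9.45 over jsd arrays, so the groups overlapped. Of 17 measured Schwann cell and nerve markers 7 were tested and 1 rose (14.3%, beside 3.57% of all tested genes), Ncmap, a myelin protein gene. Ncmap passed the dim filter only through the SCARKO-jsd arrays, as its jsd mean was 6.59. Without it 0 of 6 tested markers were called. Of the 7, 4 (57.1%, beside 24.6%) did not overlap, 3 being higher and 1 lower in SCARKO-jsd testes. The other 10 were dim, among them Mag, Egr2 and Snap25. Of these 10, 1 (10.0%, beside 14.4% of genes not tested) did not overlap, Nefh, higher by 0.83. The mean of all 17 was 6.60 to 6.92 in SCARKO-jsd and 6.47 to 6.49 in jsd arrays, and without Ncmap 6.43 to 6.77 and 6.43 to 6.51. Of 14 measured spermatogonial markers 3 rose and 2 fell (35.7%, beside 3.57% of all tested genes), and 10 (71.4%, beside 24.6%) did not overlap, 8 being higher and 2 lower in SCARKO-jsd testes. Their means were 8.57 to 9.03 in SCARKO-jsd and 8.24 to 8.52 in jsd arrays. Of 18 markers of meiotic cells and spermatids 12 were dim and 6 were tested, of which 2 rose (33.3%, beside 3.57% of all tested genes). For 3 of the 6 the groups did not overlap, beside 24.6% of all tested genes, and all 3 were higher in SCARKO-jsd testes. All 6 differences were positive, with a median of 0.813. The means of the 18 were 5.78 to 6.14 in SCARKO-jsd and 5.54 to 5.73 in jsd arrays. For both germ cell lists the mean of every SCARKO-jsd array was above that of every jsd array. Of 6 melanocyte markers 3 were tested and 1 rose (33.3%, beside 3.57%), Dct, a melanin synthesis enzyme, by 2.74. Dct also passed the dim filter only through the SCARKO-jsd arrays, with a jsd mean of 5.52. Without it 0 of 2 tested markers were called. The marker lists were chosen with earlier results of these data known. Without Dct the list's mean was 5.51 to 5.72 in SCARKO-jsd and 5.57 to 5.65 in jsd arrays. The part of these markers in the ion channel results was not tested.

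Among somatic cells of the testis, 1 of 17 Sertoli markers rose (Krt18) and 2 fell (Rhox5 and Wt1). That is 17.65%, or 12.5% without Rhox5, beside 3.57% of all tested genes. Krt18 passed the dim filter only through the SCARKO-jsd arrays, which spread from 6.868 to 8.605, as its jsd mean was 5.90. Its limma adjusted p of 0.0478 was just inside the threshold, and with no filter on dim genes it was 0.054. For 6 of the 17 (35.3%, beside 24.6%) the groups did not overlap, 3 being higher and 3 lower in SCARKO-jsd testes. The list's mean without Rhox5 was 10.90 to 11.23 in SCARKO-jsd and 10.89 to 11.04 in jsd arrays. Leydig markers held 0 calls, with means of 11.71 to 11.88 in SCARKO-jsd and 11.67 to 11.89 in jsd arrays, and peritubular myoid markers 0, with 9.23 to 9.36 and 9.21 to 9.38. Of 9 endothelial markers 8 were tested and Kdr fell (12.5%, beside 3.57%). The differences of the other 7 were positive, and the median of the 8 was 0.22. For 2 of the 8 (25.0%, beside 24.6%) the groups did not overlap, Vwf at 0.53 and Kdr at -0.79. The list's means were 7.68 to 8.23 in SCARKO-jsd and 7.55 to 7.95 in jsd arrays. Of 14 rete testis and epididymal markers 13 were dim and 0 were called, with means of 5.68 to 5.95 in SCARKO-jsd and 5.59 to 5.73 in jsd arrays. For 4 of the 13 (30.8%, beside 14.4% of genes not tested) the groups did not overlap. These 4 were higher in SCARKO-jsd testes, by 0.04 (Defb1) to 0.79 (Krt8). Esr1, the 1 tested gene, was higher by 0.19 without overlap.

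Kcnk6, a tandem-pore potassium channel gene of the kind that carries leak current, was at 9.05, 8.94 and 8.87 in SCARKO-jsd testes, against 9.51, 9.38 and 9.31 in jsd testes. All SCARKO-jsd arrays were lower, and the gap between the groups was wider than the range within either. The fall was -0.45 ± 0.10 (SE), 1.37-fold, just inside the threshold (limma, adjusted p = 0.0486). The call ended when any of the 3 jsd arrays or SCARKO-jsd 1 or 3 was left out (differences of -0.50 to -0.40, adjusted p up to 0.213), with median centring (-0.41, adjusted p = 0.159), with a replicate block (adjusted p = 0.0653) with no filter on dim genes (0.0616), and where probe sets were averaged or tested singly (0.0525 and 0.0992). Kcnk6 has a single probe set. Of its neighbours on chromosome 7, Ggn, Psmd8, Yif1b and Spint2 were tested and differed by -0.05 to 0.14, none called.

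The other tandem-pore channels lay on both sides of 0. Kcnk5 and Kcnk1 were higher by 0.29 ± 0.12 and 0.21 ± 0.12 (SE; limma, adjusted p = 0.249 and 0.418), and their groups overlapped. Kcnk3 and Kcnk13 differed by -0.21 and -0.11. The family held 7 dim genes of 12, with differences of -0.34 to 0.18.

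Voltage-gated potassium channel genes held 9 tested members and none passed. Kcng2, a silent subunit that joins other potassium channel pores, was at 8.47, 8.58 and 8.36 in SCARKO-jsd and 9.05, 8.85 and 8.70 in jsd testes. Kcnd3, which carries transient outward current in heart and neurons, was at 10.36, 10.15 and 10.30 in SCARKO-jsd and 10.59, 10.50 and 10.55 in jsd testes. For both genes all SCARKO-jsd arrays were lower than all jsd arrays. Their differences were -0.40 ± 0.12 for Kcng2 and -0.28 ± 0.09 for Kcnd3 (SE; limma, adjusted p = 0.123 and 0.160). The family split into 4 positive and 5 negative differences, from -0.40 to 0.41 (Kcng4), and 5 of its 9 genes (55.6%) did not overlap between the groups, beside 24.6% of all tested genes.

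Kcna6, a neuronal potassium channel gene of the same family, was just too dim to be tested, with a mean under the limit of 6.64. It was at 6.96, 7.43 and 7.07 in SCARKO-jsd testes, against 5.92, 5.69 and 6.45 in jsd testes, without overlap. Its difference of 1.14 was the largest of the 105 dim ion channel genes. With no filter on dim genes it was called (adjusted p = 0.0323), where 2.26% of 18194 genes were. Its other probe sets were dim in both groups and gave 0.26 and 0.10. With every probe set tested by itself, its brightest did not pass (adjusted p = 0.0763).

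Calcium-activated potassium channels were represented by 2 tested genes. Kcnma1, the large-conductance channel opened by voltage and calcium, was at 8.29, 8.48 and 8.28 in SCARKO-jsd testes and 7.25, 7.51 and 8.23 in jsd testes. The SCARKO-jsd arrays were close together while jsd 3 reached almost their level, and the difference was 0.69 ± 0.23 (SE; limma, adjusted p = 0.174). Without jsd 3 it was 0.97 and passed (adjusted p = 0.0212), but its second bright probe set gave 0.15. Kcnn4, of intermediate conductance, differed by 0.074 ± 0.10. Kcnmb4, a beta subunit of the large-conductance channel, was dim at 6.82, 6.98 and 6.59 in SCARKO-jsd and 6.54, 6.47 and 6.42 in jsd arrays.

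Inward rectifier and auxiliary potassium channel genes showed small differences. Kcnj8 and Kcnj11, pore subunits of ATP-sensitive potassium channels in vessels and in pancreas, differed by 0.36 ± 0.17 and -0.006 ± 0.083 (SE; limma, adjusted p = 0.327 and 0.977). For Kcnj8 all SCARKO-jsd arrays were above all jsd arrays, while for Kcnj11 the groups overlapped. Kcne4, a small subunit that modulates potassium channels, differed by -0.13 ± 0.11. Kcnt1, a sodium-activated channel, differed by 0.17 ± 0.10 and Kcnip1, a calcium-binding partner of channels like Kcnd3, by -0.15 ± 0.13. Of 81 potassium channel genes in all, 22 were tested, 1 fell and 21 did not pass, with a median difference of -0.01.

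Clcn genes were mostly bright, with 6 of 7 tested, and none passed. Clcn6, a chloride-proton exchanger of late endosomes, was lower in all SCARKO-jsd arrays (8.29 to 8.42) than in jsd arrays (8.48 to 8.53), by -0.17 ± 0.08 (SE; limma, adjusted p = 0.344). Clcn4, an endosomal exchanger, was higher by 0.22 ± 0.11 (adjusted p = 0.347), with 0.24 on its other bright probe set. The family's differences ran from -0.17 to 0.22.

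No sodium channel gene could be tested. All 11 Scn genes and all 4 Trpv genes were dim, with differences of -0.14 to 0.27 and -0.02 to 0.05. Among Trp genes 6 of 18 were tested and none passed. Trpm6, a magnesium-permeable channel with a kinase domain, was at 6.96, 7.55 and 7.08 in SCARKO-jsd and 6.81, 6.71 and 6.73 in jsd testes. Trpm3, a cation channel opened by heat and pregnenolone sulfate, was at 7.33, 7.19 and 7.43 in SCARKO-jsd and 6.97, 6.53 and 7.12 in jsd testes. Both were higher in all SCARKO-jsd arrays, by 0.45 ± 0.15 and 0.44 ± 0.16 (SE; limma, adjusted p = 0.179 and 0.192). Trpc7 differed by -0.001 ± 0.11. Trpc1, chosen after its values were seen, was dim at 5.80, 6.35 and 5.79 in SCARKO-jsd and 5.29, 5.23 and 5.18 in jsd arrays.

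Over all 105 dim ion channel genes, the groups did not overlap for 11 (10.5%), beside 14.4% of the 7277 genes not tested. Their differences ran from -0.50 to 1.14, and 103 of the 105 were under the limit in both groups, the exceptions being Kcna6 and Kcnmb4. The rule also took in 4 symbols that stand for no channel subunit, of which Trpc4ap and the imprinted non-coding RNA gene Kcnq1ot1 were tested and did not pass.

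Genes that work with ion channels were followed in 7 lists outside the rule, in which 80 of 151 measured genes were tested. One rose, 3 fell and 76 did not pass, 4 of 80 beside the 3.57% of all genes. Nt5e, the cell-surface enzyme that makes adenosine from AMP, was at 9.68, 9.80 and 9.55 in SCARKO-jsd testes, against 10.58, 10.41 and 10.65 in jsd testes. Ank3, the membrane scaffold that holds sodium and potassium channels in place in neurons, was at 7.53, 7.43 and 7.48 in SCARKO-jsd and 8.61, 8.28 and 8.25 in jsd testes. In both genes all SCARKO-jsd arrays were clearly lower, by -0.87 ± 0.11 for Nt5e and -0.90 ± 0.11 for Ank3 (SE; limma, adjusted p = 0.00704 and 0.00789). A second bright probe set of Nt5e gave -0.76, and the next probe sets of Ank3, dim in SCARKO-jsd testes alone, gave -0.96 and -0.92, all without overlap. Without jsd 1 the call of Nt5e ended (adjusted p = 0.0538).

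**Figure D4:**
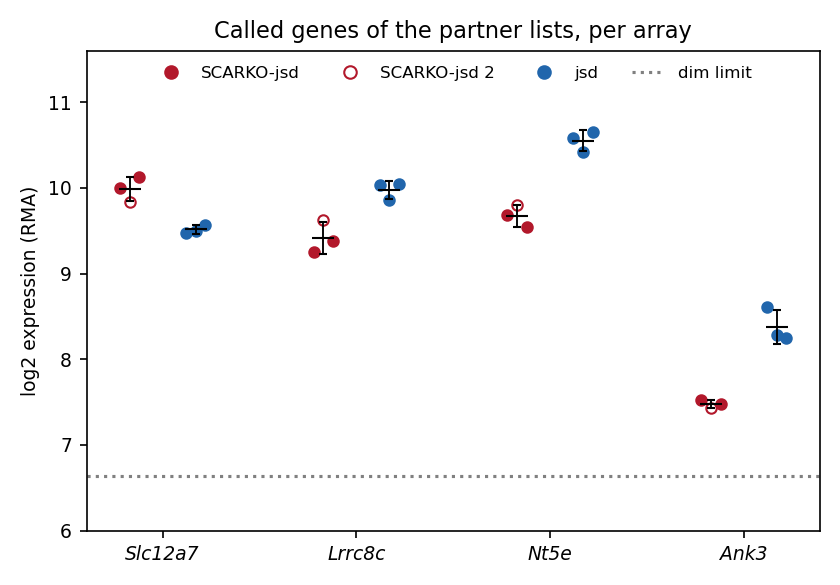
Log2 expression (vertical axis) on each array of the 4 called genes from the partner lists, SCARKO-jsd in red (SCARKO-jsd 2 open) at left and jsd in blue at right of each gene, with mean and SD and the dim limit dotted. Ank3 and Nt5e are separated by more than 0.5 log2 units, Slc12a7 and Lrrc8c by less.

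The remaining calls of these lists were close to the threshold. Slc12a7, a potassium-chloride cotransporter, was at 10.00, 9.84 and 10.12 in SCARKO-jsd and 9.47, 9.50 and 9.57 in jsd testes. Lrrc8c, a subunit of the volume-regulated anion channel, was at 9.26, 9.62 and 9.38 in SCARKO-jsd and 10.03, 9.86 and 10.05 in jsd testes. Neither gene's groups overlapped, and the rise of Slc12a7 (0.47 ± 0.10) and the fall of Lrrc8c (-0.56 ± 0.12) had limma adjusted p values of 0.0482 and 0.0478 (± SE). A second bright probe set gave 0.063 and 0.062 in this order, and both calls ended with no filter on dim genes, with the mean of probe sets, with median centring, with a replicate block and on leaving out any single array other than SCARKO-jsd 2 (limma adjusted p at most 0.518).

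By list, the 13 tested genes of calcium stores, pumps and exchangers, the 8 of other cation channels and the 7 of AMPA receptors and their anchors held 0 calls. The unadjusted limma p was below 0.05 for 0, 3 (37.5%) and 0 genes of them, and for 18.0% of all tested genes. The 12 tested sodium and potassium pumps and cotransporters held Slc12a7, the 18 chloride and anion channels Lrrc8c, the 15 genes of ATP signalling Nt5e and the 7 modulators of potassium and sodium channels Ank3. In this order the unadjusted p was below 0.05 for 5 (41.7%), 2 (11.1%), 3 (20.0%) and 2 (28.6%) of their tested genes. In the lists without a call the closest genes were Mcu, the mitochondrial calcium uniporter (0.24 ± 0.11), Hvcn1, a proton channel (0.39 ± 0.12), and Grip1, an anchor of AMPA receptors (-0.32 ± 0.17, SE). Their limma adjusted p values were 0.316, 0.131 and 0.378. Slc12a4, a relative of Slc12a7, was higher by 0.68 ± 0.17 (adjusted p = 0.0785) and Ano10, a protein of the anoctamin family, by 0.48 ± 0.11 (adjusted p = 0.0701). Pycard, the inflammasome adaptor downstream of P2rx7, differed by -0.36 ± 0.11 (adjusted p = 0.133) and Stx1a, a membrane fusion protein that binds channels, by -0.60 ± 0.16 (adjusted p = 0.0921). Without SCARKO-jsd 2, Slc12a4, Pycard and Stx1a passed (adjusted p = 0.0312, 0.0460 and 0.0421).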

How the data were processed

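Biotin-labelled RNA of whole testes was measured on Affymetrix arrays. The authors deposited 1 log2 expression value per probe set and array. The submitters' processing notes name RMA and affy. For affy no version is given in the sources used here. They ran from 2.58 to 14.84 with 0 missing. RMA sets arrays to a shared distribution, so a shift of most transcripts cannot be seen. Of 45101 probe sets, GEO's platform annotation gave 1 symbol for 34958, several for 932 and none for 9211. Probe sets with several symbols, 2 of them with an ion channel symbol, named no gene. Ion channel genes had 325 probe sets, and the brightest of each gene was used. RefSeq names (GRCm38.p6), found for 34754 probe sets by gene ID, changed 0 symbols.

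The lowest 40% of genes by mean were left out, and 10917 genes were tested with limma 3.58.1 (lmFit, eBayes, two-sided) in R 4.3.3 on a design with genotype alone. The number of arrays limits the precision, and the median SE was 0.11. The fit was tested on simulated data. Named are Cacng5, P2rx7, every called ion channel gene, the 2 uncalled tested genes of each family with the smallest p, dim ones that did not overlap and differed by at least 1, every called partner gene and the closest uncalled one of each list. The ion channel genes, the 7 partner lists and the 10 marker lists were chosen with earlier results of these data known. Alternatives were no filter, a 60% filter, every probe set, the mean of probe sets, median centring, a further quantile normalisation, trend and robust, arrayWeights, leaving out each array, a replicate block and thresholds of 0.01 and 0.1. One gene is not reported here. Figures were drawn with matplotlib 3.10.9.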

Additional observations from a re-analysis of the deposited data

How the results depend on the processing

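The calls of Cacng5 and P2rx7 kept their direction and their side of the threshold wherever tested, over 15 and 16 alternatives (differences of 2.75 to 3.15 and 0.92 to 1.30). With a 60% filter both were left out as dim, so 1 ion channel gene was called (Kcnk6), and with the mean of probe sets 1 was (P2rx7, Cacng5 being left out as dim). With arrayWeights 5 were called, Kcng2 and P2rx2 being added, and with each array left out 2 to 4. The calls without SCARKO-jsd 2 include Kcnq1ot1, which stands for no channel subunit. Median centring, which moved the median of all differences by 0.044, gave 2 higher and 0 lower. Calls over all genes numbered 214 with every probe set by itself, 860 with arrayWeights, 111 and 728 at thresholds of 0.01 and 0.1, and 78 to 768 with an array left out (78, 120, 239 and 141 without jsd 1, jsd 2, jsd 3 and SCARKO-jsd 3, and 768 without SCARKO-jsd 2). Partner list calls numbered 2 with no filter, with the mean of probe sets, with every probe set, with median centring and at a threshold of 0.01, 8 with arrayWeights, 7 at a threshold of 0.1 and 1 to 10 with an array left out (1 without jsd 1, 2 without jsd 2, jsd 3 or SCARKO-jsd 3, and 10 without SCARKO-jsd 2). The cause of these moves was not tested.

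Of 634 checks of 39 named genes, 559 kept direction and side of the threshold, 35 lost the call, 16 gained it and 24 changed sign, all 24 in 6 uncalled genes with differences near 0. With the mean of probe sets Cacna1d was at -0.16, Cacnb4 at -0.042 and Kcnj11 at 0.047. Median centring gave 0.031 for Cacng4, 0.037 for Kcnj11 and 0.042 for Trpc7, a further quantile normalisation 0.0076 for Cacng4 and 0.037 for Trpc7, and arrayWeights 0.014 for Cacna2d1 and 0.018 for Cacng4. With an array left out the differences ran from -0.027 to 0.12 for Cacna1d, -0.13 to 0.012 for Cacna2d1, -0.14 to 0.12 for Cacnb4, -0.033 to 0.015 for Cacng4, -0.036 to 0.032 for Kcnj11 and -0.11 to 0.079 for Trpc7.

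Same-numbered arrays were not taken as pairs, since their deviations from the group means correlated at -0.21, 0.23 and 0.24 for numbers 1, 2 and 3, and SCARKO-jsd 1 correlated best with jsd 3. With the number as a replicate block 389 genes were called in all and 2 ion channel genes (Cacng5 at 2.99 and P2rx7 at 1.25), the calls of Kcnk6, Slc12a7 and Lrrc8c ending and Slc12a4 passing (0.68, adjusted p = 0.0336). Brightness limits the rest: 105 of 152 ion channel genes were dim.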

Other observations

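SCARKO-jsd 2 was the lowest of the 6 arrays on several probe sets, in genes chosen after their values were seen. On others it was the highest of the 6, among them the brightest probe sets of Cacng5, Kcna6, Kcng4, Kcnj8 and Trpm6. Kcnq1ot1, the non-coding RNA that silences its imprinted neighbours, was at 8.58, 6.76 and 8.32 in SCARKO-jsd testes, against 7.66, 7.63 and 8.08 in jsd testes. Its second bright probe set gave 8.43, 6.83 and 8.10 in SCARKO-jsd and 7.58, 7.76 and 8.07 in jsd arrays, so on both SCARKO-jsd 2 was the lowest of the 6 arrays and the other SCARKO-jsd arrays the highest. With all arrays Kcnq1ot1 did not pass (difference 0.098, limma adjusted p = 0.930), and without SCARKO-jsd 2 it was called.

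Trpc2, a channel of pheromone sensing in rodents, was dim at 6.43, 4.79 and 5.87 in SCARKO-jsd and 6.07, 6.22 and 6.29 in jsd arrays. A second probe set of Kcnd3 was at 7.589, 5.449 and 6.995 in SCARKO-jsd and 7.456, 7.370 and 7.468 in jsd arrays. The dimmest probe set of Kcnma1 was at 5.61, 3.31 and 4.93 in SCARKO-jsd and 3.84, 4.31 and 5.21 in jsd arrays, where the jsd arrays spread widely too. In each of these SCARKO-jsd 2 was the lowest array, while on the brightest probe set of Kcnma1 it was the highest.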
